A study of Homo sapiens with 6 samples.

Results

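PCK1, G6PC, SLC37A4, PKM, LDHA, PDHB and SHPK cover 3 neighbouring jobs of liver sugar metabolism: the output of glucose, the handling of pyruvate and lactate, and the entry of sedoheptulose into the pentose phosphate pathway. They were chosen by name, with earlier results of these data known. All 7 were found among the 6357 loci of the deposited expression table, of which 4926 carry a gene name. RNA was sequenced from HepG2, a line of human liver tumour cells, in 2 groups of 3 plates each, grown in the same serum-containing medium without any further treatment. The WT group is the unedited line, and the FN3K KO group carries a CRISPR knock-out of FN3K, a kinase that removes sugar adducts from glycated proteins. How many KO clones stand behind the 3 plates is not given in the sources used here, so the p-values measure the spread between plates of a line, which may be technical. Values are FPKM, fragments scaled to transcript length and to the mapped fragments of a library. Levels of different genes can be set side by side, but those of a gene between libraries also depend on the other RNAs there.

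Liver makes glucose by running much of glycolysis backwards and by bypassing its irreversible steps with dedicated enzymes. Phosphoenolpyruvate carboxykinase makes phosphoenolpyruvate from oxaloacetate in the bypass of pyruvate kinase. The glucose-6-phosphatase system of the endoplasmic reticulum releases free glucose at the end. Pyruvate stands at the crossroads, where it can become lactate, enter mitochondria to be burned as acetyl-CoA, or serve as the carbon of new glucose. Transcription of PCK1 and G6PC in hepatocytes is known to be raised by glucagon and glucocorticoids and lowered by insulin.

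The targeted gene was checked first. FN3K had 27.7, 21.9 and 23.2 FPKM in WT libraries 1, 2 and 3, and 0.782, 1.03 and 0.704 FPKM in KO libraries 1, 2 and 3, so it fell by 3.78 on the log2 scale (standard error 0.13; limma adjusted p = 1.11e-07, Benjamini-Hochberg). Of 14 hepatocyte markers, 10 were listed by name, and their summed FPKM lay between 11341 and 11488 in WT and between 17870 and 19016 in KO. ALB, APOA2, FGG and RBP4 were not listed by name. Among the 10, TTR, AFP and APOA1 rose by 2.90, 2.01 and 1.14 on the log2 scale, APOB and FGB rose too, FGA was called higher (0.26, with its call lost without WT library 2 or 3 or KO library 1 or 3, at 0.21 to 0.24), HNF4A fell by 0.35, and SERPINA1, TF and AHSG did not pass the test. FGB (0.27), FGA (0.03) and HNF4A (-0.34) lost their calls in single-gene models with the library adjustment of Ballgown, the tool used in the study. Of 14 markers of other liver cells, only KRT19 and SOX9 were listed by name, with a summed level between 122 and 128 FPKM in WT and between 204 and 225 FPKM in KO. KRT19, a keratin of bile duct cells that HepG2 cells also make, rose from 38.3 to 137 FPKM. SOX9, also a bile duct marker, did not rise with it. Its mean was 87.1 FPKM in WT and 80.8 FPKM in KO (log2 fold change -0.11), and it did not pass the test. The markers of stellate, endothelial and immune cells were not listed by name. Several of these marker levels moved with the KO, and the part of the markers in the results on sugar metabolism was not tested. In bulk libraries, a change in the share of cells that use a gene and a change in its RNA per cell cannot be told apart.

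Of the 7 genes, 6 rose in the KO cells at an adjusted p under 0.05 and none fell. Across all 6357 loci, 21.2% were called higher, 36.5% lower and 57.7% in either direction, so a call as such was common in this comparison and a call upwards less so. The 7 were chosen with earlier results of these data known, so this contrast describes them and does not test them. For those 6 genes each KO library exceeded each WT library, against 23.6% of all loci (39.8% had every KO library below and 63.4% did not overlap in either direction). All loci together had a median log2 fold change of -0.14, and each of the 7 values lay above it. With a log2 fold change over 1 asked for as well as an unadjusted p under 0.05, PCK1 alone passed among the 7, against 4.31% of all loci that passed upwards. With 3 libraries against 3, a two-sided exact permutation test cannot give a p under 0.10, and it gave this smallest p for those 6 genes.

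**Figure D1:**
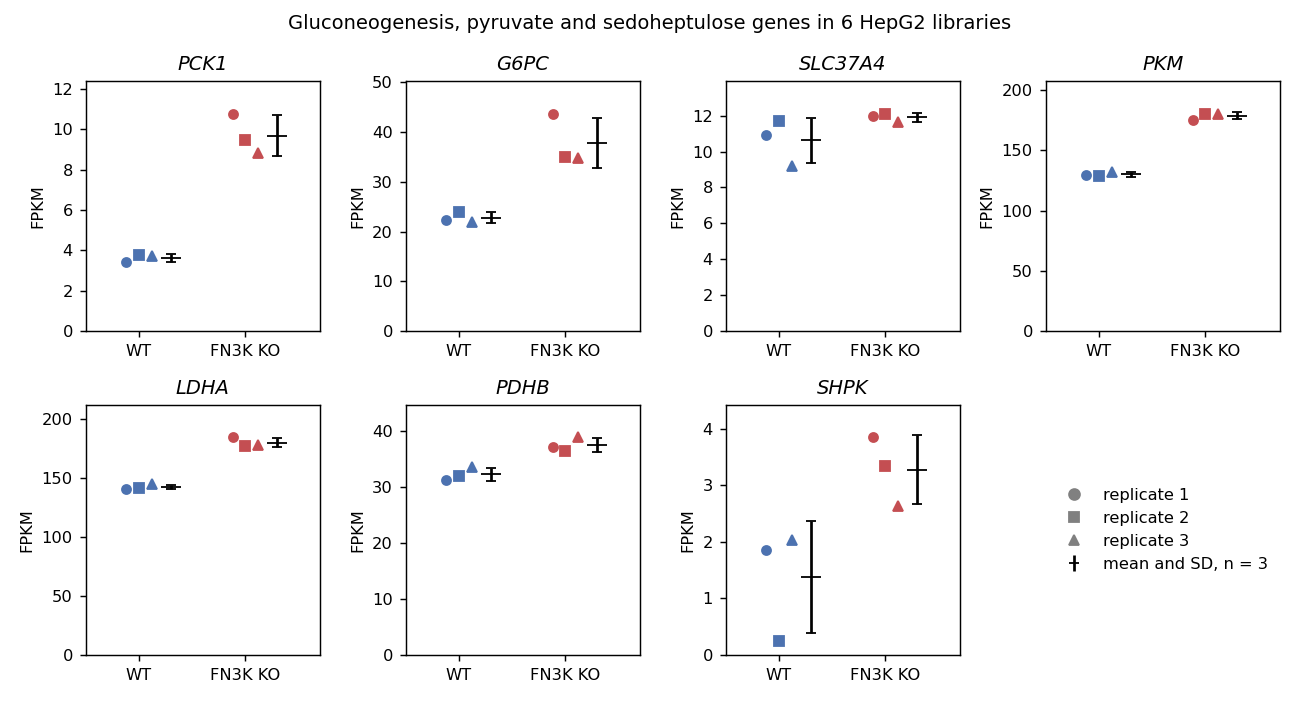
FPKM of the 7 genes in each of the 3 WT and 3 KO libraries, with the mean as a dash and its SD as a bar (n = 3), each panel on its own axis from 0. The KO points sit above the WT points in each panel but that of SLC37A4, whose WT library 2 lies above KO library 3, and the WT points of SHPK include 1 at 0.244 FPKM.

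PCK1 is the cytosolic phosphoenolpyruvate carboxykinase, which turns oxaloacetate into phosphoenolpyruvate, a step of glucose synthesis. In the deposited table it is locus MSTRG.15781, matched to the gene on chromosome 20 from 57561080 to 57568112 (GRCh38, plus strand, GENCODE version 29), with 10 exons in its transcript. It had 3.42, 3.77 and 3.74 FPKM in WT libraries 1, 2 and 3, and 10.8, 9.47 and 8.81 FPKM in KO libraries 1, 2 and 3. The lowest KO library was above the highest WT library by more than the whole range of either group. The mean went from 3.64 ± 0.194 to 9.69 ± 0.998 FPKM (SD, n = 3), 2.66 times the WT level. On the log2(FPKM + 1) scale, on which differences of weakly expressed genes are understated, PCK1 rose by 1.20 (standard error 0.11, 95% interval 0.94 to 1.45, limma adjusted p = 3.64e-05). PCK1 was a weakly expressed gene of these WT cells, at rank 5561 of 6357 loci by mean level, and stood at rank 3811 in the KO cells.

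G6PC, the catalytic subunit of glucose-6-phosphatase, performs the last step of glucose output inside the endoplasmic reticulum. Its locus MSTRG.10770 is the gene on chromosome 17 from 42900797 to 42913369 (plus strand), with 5 exons. The WT libraries 1, 2 and 3 held 22.4, 24.0 and 21.9 FPKM, and the KO libraries 43.7, 35.0 and 34.8 FPKM. KO library 1 stood apart from the other KO libraries, which were still above each WT library. The mean rose from 22.8 ± 1.10 to 37.9 ± 5.06 FPKM, 1.66 times the WT level, or by 0.70 on the log2 scale (standard error 0.09, 95% interval 0.49 to 0.91, limma adjusted p = 0.000251). Without KO library 1 the log2 fold change was 0.60 and still passed. The call was lost in a linear model of this gene alone with the library adjustment of Ballgown. That model leaves 3 residual degrees of freedom (log2 fold change 0.61, adjusted p = 0.137).

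SLC37A4 is the transporter that brings glucose-6-phosphate into the endoplasmic reticulum, where G6PC cleaves it. Its locus MSTRG.4675 lies on chromosome 11 from 119024114 to 119030906 (minus strand), with 10 exons, and its end overlaps TRAPPC4 on the opposite strand. The strand of the libraries is not given in the sources used here, so reads from the shared stretch could belong to either gene. SLC37A4 had 10.9, 11.7 and 9.22 FPKM in WT libraries 1, 2 and 3, and 12.0, 12.1 and 11.6 FPKM in KO libraries 1, 2 and 3. The groups overlapped, since WT library 2 lay above KO library 3, and WT library 3 was the low sample. The difference of 0.16 on the log2 scale (standard error 0.09, 95% interval -0.05 to 0.37, limma adjusted p = 0.179) did not pass the test. It passed in none of the 12 alternatives, whose adjusted p lay between 0.0991 and 0.798. The interval reaches up to 0.37, so these libraries do not show that the level stayed the same.

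The upstream sequences of G6PC and SLC37A4 are shown because their products work as a pair while the RNA of the first rose and that of the second did not pass the test. Both come from the RefSeq table of promoter windows (GRCh38.p14, 250 bases before and 50 after each start). It held windows for 6 of the 7 genes and none for PCK1, whose promoter was therefore not searched. Both sequences stop just before the first base of the annotated gene. They read 5′ to 3′ on the strand of the gene, that of G6PC at chr17:42900549-42900796 (plus) and that of SLC37A4 at chr11:119030907-119031127 (minus). Capitals mark the 5 letters ACGTG, the core of the hypoxia response element, which was found once in the window of G6PC, 88 bases before its start.
G6PC: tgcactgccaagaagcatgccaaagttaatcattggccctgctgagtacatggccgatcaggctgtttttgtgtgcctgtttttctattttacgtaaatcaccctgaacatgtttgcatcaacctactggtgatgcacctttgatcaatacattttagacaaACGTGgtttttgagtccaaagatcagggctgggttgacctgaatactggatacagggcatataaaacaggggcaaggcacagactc
SLC37A4: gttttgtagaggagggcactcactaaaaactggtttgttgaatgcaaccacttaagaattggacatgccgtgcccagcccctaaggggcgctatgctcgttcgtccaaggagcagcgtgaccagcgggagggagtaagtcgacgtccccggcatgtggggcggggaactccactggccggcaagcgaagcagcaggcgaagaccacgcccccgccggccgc
The letters ACGTG stand in 21.4% of all 35116 windows of this length and were not found in the windows of SLC37A4, PKM and SHPK. The other motifs searched on both strands were TGACGTCA (cAMP response element, in 1.85% of windows), its shorter form TGACG (24.6%), GTAAACA (forkhead factors, 3.42%), the nuclear receptor motif direct repeat 1 (0.0228%) and CACGTG (E box, 7.26%). None of these was found in the windows of G6PC, SLC37A4, PKM and SHPK. ACGTG is contained in CACGTG, and TGACG in TGACGTCA, so those matches are counted under both names. A match is a description of letters and not a bound site. Variants of these motifs were not searched, so a missing match does not show that a site is absent.

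PKM encodes the pyruvate kinase of most tissues and of tumours, which makes pyruvate from phosphoenolpyruvate, the product of PCK1. Its locus MSTRG.8184 is on chromosome 15 from 72199029 to 72231822 (minus strand). The splice forms PKM1 and PKM2 share this locus and cannot be told apart in it. PKM had 129, 128 and 132 FPKM in WT libraries 1, 2 and 3, and 175, 180.2 and 179.9 FPKM in KO libraries 1, 2 and 3. The spread within each group was small beside the gap between them. The mean rose from 129.9 ± 1.96 to 178.5 ± 2.71 FPKM, 1.37 times the WT level, or by 0.46 on the log2 scale (standard error 0.05, 95% interval 0.35 to 0.57, limma adjusted p = 7.47e-05).

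LDHA, the lactate dehydrogenase subunit typical of cells that turn pyruvate into lactate, is locus MSTRG.3733 on chromosome 11 from 18394388 to 18408425 (plus strand), with 8 exons. WT libraries 1, 2 and 3 held 141.3, 141.3 and 145 FPKM, and KO libraries 1, 2 and 3 held 185, 177 and 178 FPKM. KO library 1 was the highest, and the groups did not overlap. LDHA rose by 0.34 on the log2 scale (standard error 0.05, 95% interval 0.22 to 0.45, limma adjusted p = 0.000505), from a mean of 142 ± 2.03 to 180.1 ± 3.99 FPKM, 1.26 times the WT level. Near-identical processed copies of LDHA exist in the genome, and reads that match several copies may have been divided among them.

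PDHB is the beta subunit of the first enzyme of the pyruvate dehydrogenase complex, which commits pyruvate to acetyl-CoA in mitochondria. Its locus MSTRG.17394 is on chromosome 3 from 58427630 to 58433857 (minus strand) and contains an antisense gene, AC135507.1, that was not listed by name. PDHB had 31.3, 32.0 and 33.6 FPKM in WT libraries 1, 2 and 3, and 37.1, 36.4 and 38.8 FPKM in KO libraries 1, 2 and 3. The groups did not overlap, but the gap between them was close to the spread within them. The log2 fold change was 0.21 (standard error 0.06, 95% interval 0.08 to 0.34, limma adjusted p = 0.0119), for means of 32.3 ± 1.17 and 37.4 ± 1.27 FPKM, and the call was lost with the library adjustment of Ballgown (log2 fold change 0.24, adjusted p = 0.113).

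LDHA and PDHB were the members whose RefSeq windows held an E box, so these sites are shown, each as 30 bases on the strand of the gene with the motif in capitals. The first LDHA window also held the only full cAMP response element found in the windows searched, 51 bases before its RefSeq start. PCK1 had no window and was not searched. The E boxes of this LDHA window lay 185 and 87 bases before the same start. The element (chr11:18394501-18394530) and the nearer E box (chr11:18394464-18394493) fall inside the annotated first exon, while the letters of the farther E box (stretch chr11:18394366-18394395) lie just before it. The E box of PDHB (chr3:58434051-58434080, minus strand) is 236 bases before the start.
LDHA cAMP response element: gccccccccgcTGACGTCAgcatagctgtt
LDHA farther E box: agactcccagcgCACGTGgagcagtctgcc
LDHA nearer E box: cagcccgactcaCACGTGggttcccgcacg
PDHB E box: acaccgaccaggCACGTGtgcccagcgtgc
Counting both strands, ACGTG matched 5 times in this LDHA window and 3 times in that of PDHB. CACGTG reads the same on both strands, so each E box adds a match on either strand to these counts. A further LDHA window, at a later start, held none of the motifs.

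SHPK is sedoheptulokinase, which phosphorylates the free sugar sedoheptulose to sedoheptulose-7-phosphate, an intermediate of the pentose phosphate pathway. Its locus MSTRG.10012 is on chromosome 17 from 3608262 to 3636322 (minus strand), with 7 exons. It overlaps TRPV1 and AC027796.3 on the same strand, neither listed by name, so reads in the shared exons cannot be assigned with certainty. SHPK had 1.86, 0.244 and 2.03 FPKM in WT libraries 1, 2 and 3, and 3.85, 3.35 and 2.63 FPKM in KO libraries 1, 2 and 3. WT library 2 was far below the other libraries, and KO library 3 was near the upper WT values. The mean was 1.38 ± 0.986 FPKM in WT and 3.28 ± 0.609 FPKM in KO, 2.38 times the WT level. The log2 fold change of 0.94 (standard error 0.36, 95% interval 0.12 to 1.76) was at the edge of the threshold, with a limma adjusted p of 0.0498. Without WT library 2 it was 0.53 (adjusted p = 0.0827). The call was also lost without KO library 1 (0.85), KO library 2 (0.93) or KO library 3 (1.06), with a pseudocount of 0.1 (1.57, adjusted p = 0.0743), without the variance trend (adjusted p = 0.0656), with loci under a mean of 1 FPKM left out (adjusted p = 0.0512) and with the library adjustment of Ballgown (0.79, adjusted p = 0.521).

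**Figure D2:**
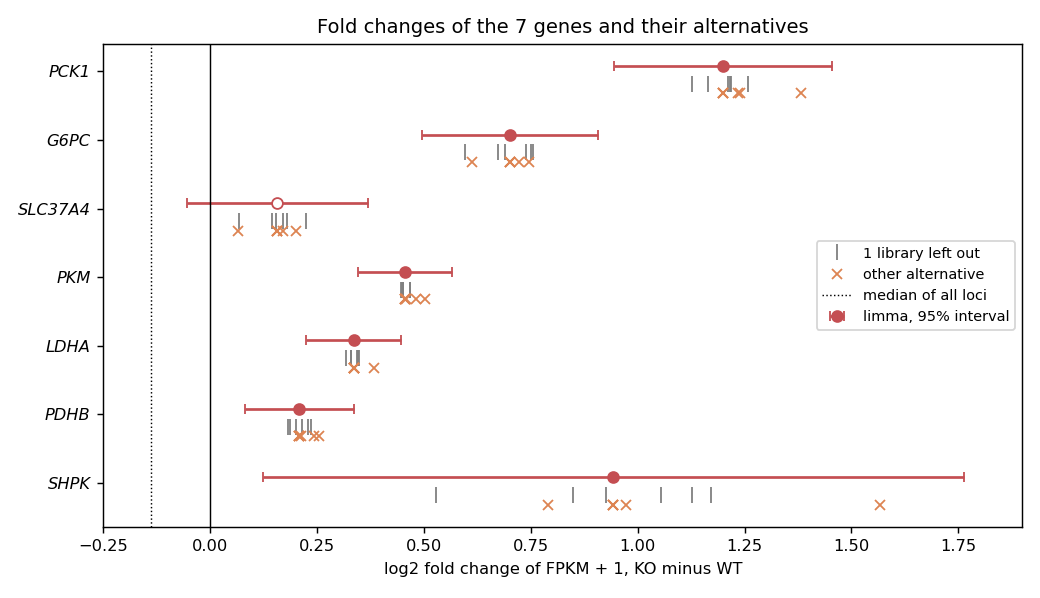
Log2 fold change of FPKM + 1, KO minus WT, for each of the 7 genes, with limma's value and 95% interval as a circle and bar (filled where the adjusted p was under 0.05), the values with 1 library left out as ticks and those under the other alternatives as crosses. The dotted line marks the median of all loci at -0.14, and the interval of SHPK, from 0.12 to 1.76, is the widest of the 7.

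In order of level, the WT cells had LDHA above PKM, then PDHB, G6PC, SLC37A4, PCK1 and SHPK, and no neighbours in this order overlapped in their libraries. In the KO cells the order was LDHA, PKM, G6PC, PDHB, SLC37A4, PCK1 and SHPK. There the libraries of LDHA and PKM overlapped, as did those of G6PC and PDHB, so neither pair was ordered beyond its spread. G6PC was below PDHB in each WT library, and its KO libraries spanned those of PDHB. LDHA moved from rank 274 to rank 223 among all loci, and SHPK from rank 6166 to rank 5599.

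Ratios of FPKM within a library do not depend on how that library was scaled, and 4 were formed. PCK1 makes phosphoenolpyruvate and PKM uses it. The log2 ratio of PCK1 to PKM was -5.24, -5.09 and -5.14 in WT libraries 1, 2 and 3, and -4.03, -4.25 and -4.35 in KO libraries 1, 2 and 3. Even the lowest KO ratio was above each WT ratio, and the means differed by 0.95 on the log2 scale (0.74 with 1 added to each FPKM). For G6PC and its transporter SLC37A4, the linear ratio was 2.05, 2.06 and 2.38 in WT and 3.66, 2.89 and 3.00 in KO, a log2 difference of 0.55. KO library 1, where G6PC was highest, also had the highest ratio. LDHA and PDHB compete for pyruvate, and their linear ratio was 4.52, 4.42 and 4.32 in WT and 4.98, 4.88 and 4.59 in KO, a log2 difference of 0.12, the smallest of the 4. SHPK was set against TKT, transketolase, which also handles sedoheptulose-7-phosphate: the linear ratio was 0.0156, 0.00225 and 0.0177 in WT and 0.0304, 0.0258 and 0.01995 in KO. The log2 difference of 1.55 rested on WT library 2 and was 0.59 without it, and it was 0.76 when 1 was added to each FPKM. In all 4 ratios the KO libraries were above the WT libraries, and the two-sided exact permutation test gave p = 0.10, the smallest it can give here, also after Benjamini-Hochberg adjustment over the 4. LDHB was not listed by name, so its ratio to LDHA was not formed.

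**Figure D3:**
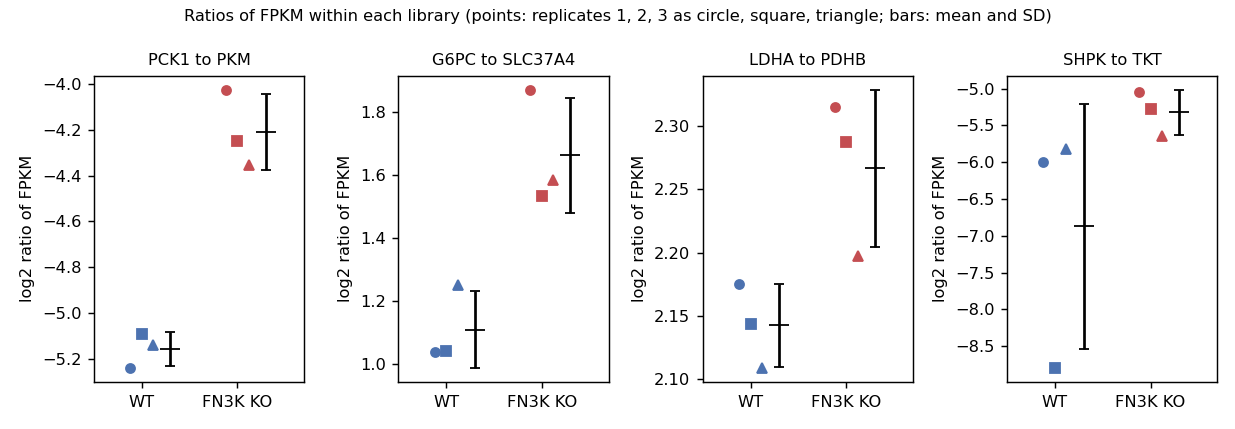
Log2 ratio of FPKM within each library for PCK1 to PKM, G6PC to SLC37A4, LDHA to PDHB and SHPK to TKT, with WT and KO libraries as points and group means as dashes with SD bars (n = 3), on axes that do not start at 0. Each KO point is above each WT point in the same panel, by least for LDHA to PDHB, and the mean of SHPK to TKT in WT is drawn down by library 2 at -8.80.

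For each of the 7, the loci with the most similar pattern over the 6 libraries were found by the Euclidean distance of centred log2(FPKM + 1) among 4895 named loci with a mean of at least 1 FPKM. The nearest to PCK1 were DHRS1 (distance 0.0696) and CDH1 (0.128), to G6PC SKP2 (0.137) and NREP (0.173), and to SLC37A4 RNF4 (0.108) and TSSC1 (0.132). PKM lay nearest to PACS1 (0.0597) and B2M (0.0599), LDHA to ASAH1 (0.0525) and CPPED1 (0.0620), and PDHB to AGPAT1 (0.0520) and YWHAZ (0.0595). None of these is a sugar enzyme. SHPK had no close neighbour, with MCU at 0.556 and PAPD5 at 0.591.

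Around these genes, 152 genes of the surrounding pathways were listed, the 7 included, and 85 were found by name. Of the 85, 41 were called higher, 23 lower and 21 neither, with a median log2 fold change of 0.18. Without the 7, the counts were 35, 23 and 20 of 78 with a median of 0.15. All loci had a median of -0.14, with 21.2% called higher and 36.5% lower. Each list count below is to be read beside these shares. With the library adjustment of Ballgown the 85 gave 20 higher and 6 lower calls, and in that model 9.53% of all loci were called higher and 8.20% lower. Genes not listed by name include several that a reader would look for, such as PC, PCK2, FBP1, DLAT and the PDK kinases. They may be among the loci without a gene name, and no level can be given for them here.

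**Figure D4:**
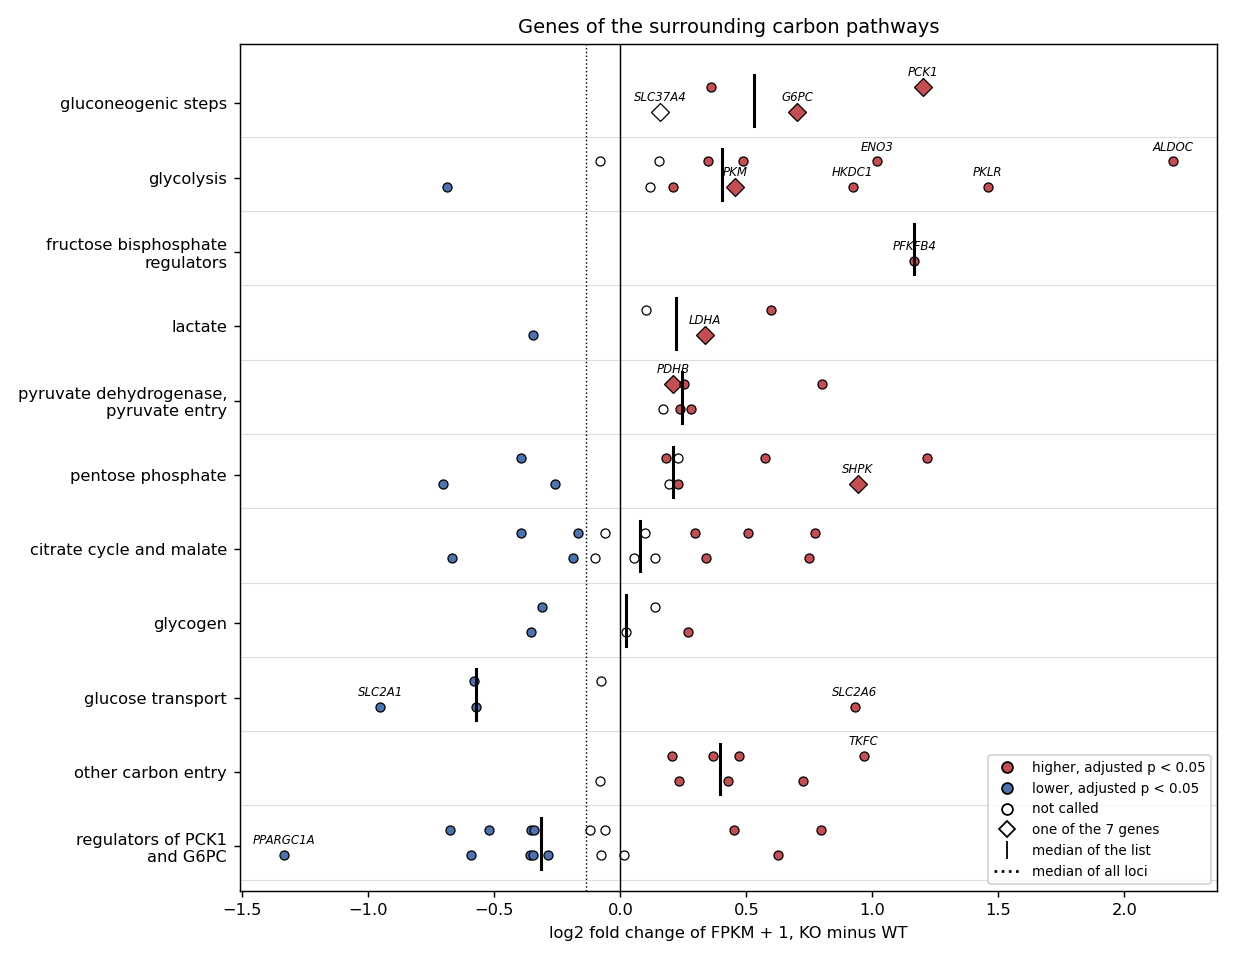
Log2 fold change of FPKM + 1, KO minus WT, for each gene found by name in the pathway lists, 1 row per list, filled where limma's adjusted p was under 0.05, with the median of each list as a vertical mark. The glucose transport and regulator rows have medians below 0, at -0.57 and -0.32, while the gluconeogenic row has its 4 genes between 0.16 and 1.20.

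Among the gluconeogenic steps, 4 of 8 genes were found, of which PCK1, G6PC and G6PC3 rose and SLC37A4 did not pass the test (median 0.53). G6PC3 is the widely expressed form of glucose-6-phosphatase, and it rose from 36.8 ± 4.48 to 47.3 ± 1.04 FPKM (log2 fold change 0.36, limma adjusted p = 0.00575). The liver form G6PC made up 40.9%, 39.6% and 34.6% of the summed level of the pair in WT libraries 1, 2 and 3, and 47.8%, 43.2% and 42.0% in the KO libraries. The KO shares were above the WT shares, with means of 44.3% ± 3.09 and 38.4% ± 3.31. PCK1 was the only one of the 4 called when the Ballgown adjustment was used.

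In glycolysis, 12 of 22 genes were found, 8 rose, 1 fell and 3 did not pass the test (median 0.40), and 6 to 8 were called higher when a library was left out. The largest rises were in isozymes at low level. ALDOC, the brain-type aldolase, rose from 1.86 ± 0.339 to 12.0 ± 0.439 FPKM (log2 fold change 2.19), and its share of ALDOC and ALDOA together went from 1.17% ± 0.212 to 6.22% ± 0.424. PKLR, the liver and red cell pyruvate kinase, rose from 2.09 ± 0.886 to 7.28 ± 1.18 FPKM (1.46). PKM nevertheless remained the main pyruvate kinase RNA, since PKLR made up 1.58% ± 0.647 of the pair in WT and 3.92% ± 0.641 in KO. HKDC1, a hexokinase domain protein, rose from 4.80 ± 1.27 to 9.79 ± 0.485 FPKM (0.92), while HK2, the hexokinase common in tumours, fell from 18.3 ± 0.776 to 11.1 ± 1.72 FPKM (-0.69). HKDC1 thereby went from 20.5% ± 3.87 to 47.1% ± 2.60 of the HKDC1 and HK2 level. PFKL, the liver phosphofructokinase, rose by 0.35 and PGAM1, phosphoglycerate mutase, by 0.49. ALDOA (0.21) and the muscle enolase ENO3 (1.02) passed as well, but ALDOA lost its call without WT library 1, WT library 2 or KO library 3 (0.17 to 0.18), and ENO3 without WT library 2 or 3 or KO library 1 or 3 (0.87 to 0.97). GAPDH (-0.08), TPI1 (0.12) and PGK1 (0.15), enzymes of the reversible middle steps, did not pass, though TPI1 and PGK1 did after scaling to a common 75th percentile (0.16 and 0.20). GAPDH, PGK1 and PGAM1 have near-identical copies in the genome, so their levels are uncertain. The calls of PKLR, HK2, PGAM1, ALDOA and ENO3 were lost with the library adjustment of Ballgown, and those of ALDOC, HKDC1, PFKL and PKM were kept. PFKFB4, which makes and breaks down the phosphofructokinase activator fructose-2,6-bisphosphate, was the 1 of 6 regulators found and rose from 0.812 ± 0.0955 to 3.07 ± 0.253 FPKM (1.17).

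Of the lactate genes, 4 of 8 were found. SLC16A3, the transporter MCT4 that exports lactate, rose from 66.6 ± 7.29 to 102 ± 16.3 FPKM (log2 fold change 0.60, limma adjusted p = 0.00232), as LDHA did. SLC16A1, the transporter MCT1, fell from 35.0 ± 1.02 to 27.3 ± 0.468 FPKM (-0.35, limma adjusted p = 0.000670). BSG, the partner protein that both transporters need at the membrane, was at 261 ± 7.73 and 281 ± 19.6 FPKM and did not pass. All 3 calls held when any library was left out and with the library adjustment of Ballgown.

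On the way of pyruvate into mitochondria, 6 of 14 genes were found, 5 rose and none fell (median 0.24). The largest change was in MPC1, a subunit of the mitochondrial pyruvate carrier, which rose from 79.3 ± 3.00 to 139 ± 7.18 FPKM (log2 fold change 0.80, limma adjusted p = 7.98e-06). Its partner MPC2 was at 17.0 ± 1.5 and 19.2 ± 0.551 FPKM and did not pass (0.17, adjusted p = 0.0867 from limma), except after scaling to a common 75th percentile (0.21). The pyruvate dehydrogenase subunits moved by little: DLD by 0.28, PDHA1 by 0.25, PDHX by 0.23 and PDHB by 0.21. PDHA1, the alpha partner of PDHB, had overlapping groups, and its call was lost without WT library 1, WT library 2, KO library 1 or KO library 3 (0.19 to 0.25) and with a pseudocount of 0.1 or no variance trend. PDHX lost its call without WT library 3 (0.21). MPC1 was the only gene of the 6 still called under the Ballgown adjustment.

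Of the pentose phosphate genes, 10 of 13 were found, with 5 higher, 3 lower and a median of 0.21. TALDO1, transaldolase, which shares sedoheptulose-7-phosphate with SHPK, rose from 58.1 ± 2.36 to 86.9 ± 3.95 FPKM (log2 fold change 0.57). PGD rose by 0.23, and TKT by 0.18 with its call lost without WT library 2 (0.15) or KO library 3 (0.17). RPIA, the ribose-5-phosphate isomerase, fell from 16.6 ± 0.529 to 12.4 ± 1.46 FPKM (-0.40). PRPS2 (-0.70) and PGLS (-0.26) were called lower, and for each the omission of any of 4 libraries ended the call. These were WT libraries 2 and 3 and KO libraries 1 and 3 for PRPS2 (-0.71 to -0.53), and WT libraries 1 and 3 and KO libraries 1 and 2 for PGLS (-0.26 to -0.20). When a library was left out, this list gave 3 to 6 higher calls, with 3 without WT library 2 or KO library 3, and 1 to 2 lower calls. RPE and PRPS1 did not pass, except that PRPS1 did without WT library 3 (0.26) or after scaling to a common 75th percentile (0.24). Under the Ballgown adjustment, 2 genes of the list were called higher, TALDO1 among them, and none lower.

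The citrate cycle and malate genes went in both directions, with 14 of 23 found, 5 higher, 4 lower and a median of 0.08. Among all loci, 21.2% were called higher and 36.5% lower. IDH1, the cytosolic isocitrate dehydrogenase, rose from 108 ± 9.93 to 186 ± 12.2 FPKM (log2 fold change 0.77), and ACO1, SUCLG2, IDH2 and MDH1 rose by 0.75, 0.51, 0.34 and 0.30. IDH3A, a subunit of the mitochondrial enzyme of the cycle, fell from 10.0 ± 0.803 to 5.96 ± 0.671 FPKM (-0.67). The malate dehydrogenases, which interconvert malate and the PCK1 substrate oxaloacetate in mitochondria and cytosol, moved apart: mitochondrial MDH2 fell from 101 ± 1.91 to 76.7 ± 2.71 FPKM (-0.39) and cytosolic MDH1 rose from 42.6 ± 0.657 to 52.5 ± 0.242 FPKM. SDHB (-0.17) lost its call without any one of WT libraries 2 and 3 and the 3 KO libraries (-0.17 to -0.14). When a library was left out, 2 to 4 genes of the list were called lower, with 2 without WT library 3, KO library 1 or KO library 3. The Ballgown adjustment left 1 higher and 1 lower call, MDH1 and MDH2.

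Genes listed under the entry of other carbon were called in 1 direction, with 8 of 15 found, 7 higher and none lower (median 0.40). The shares of all loci were 21.2% higher and 36.5% lower. The list also holds mitochondrial carriers such as SLC25A1, and where their carbon goes was not measured. TKFC, the kinase of dihydroxyacetone and glyceraldehyde, rose from 15.2 ± 0.460 to 30.7 ± 1.55 FPKM (log2 fold change 0.97), and SLC25A1, the mitochondrial citrate carrier, from 58.3 ± 2.88 to 97.0 ± 2.44 FPKM (0.73). The glycerol enzymes GK (0.47) and GPD1 (0.43), SORD of the polyol pathway (0.37), the oxoglutarate carrier SLC25A11 (0.23) and the mitochondrial aminotransferase GOT2 (0.21) made up the rest. GOT1 (-0.08) did not pass, but was called lower without WT library 1 (-0.17). SLC25A11 lost its call without KO library 2 (0.20) or KO library 3 (0.22), and 5 of the 7 calls were kept with the library adjustment of Ballgown.

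Glucose transporters had the lowest median of the pathway lists, -0.57, with 5 of 11 found, 1 higher and 3 lower. SLC2A1, the GLUT1 carrier, fell from 108 ± 4.01 to 55.2 ± 3.92 FPKM (log2 fold change -0.95, limma adjusted p = 5.31e-06). SLC2A2, the GLUT2 carrier through which hepatocytes release and take up glucose, fell from 8.29 ± 1.73 to 5.16 ± 0.378 FPKM (-0.58), and SLC2A3 from 6.76 ± 1.29 to 4.17 ± 0.394 FPKM (-0.57). SLC2A6 rose from 10.8 ± 1.28 to 21.5 ± 1.64 FPKM (0.93), and SLC2A8 did not pass (-0.08). The calls of SLC2A2 and SLC2A3 were lost with the library adjustment of Ballgown. Of the glycogen genes, 5 of 13 were found. GYG1, the primer protein of glycogen, fell by 0.36 and UGP2, which makes UDP-glucose, fell by 0.31, while PYGL, the liver phosphorylase, rose by 0.27 (0.18 and not called with the library adjustment of Ballgown) and PGM1 (0.02) and PYGB (0.14) did not pass. PYGB did pass without WT library 3 or after scaling to a common 75th percentile (0.19 and 0.18).

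Among regulators known to act on PCK1 and G6PC transcription, 16 of 19 were found, and 9 were called lower, 3 higher and 4 neither (median -0.32). Of all loci, 36.5% were called lower and 21.2% higher, with a median of -0.14. The list holds genes that raise PCK1 and G6PC and genes that lower them, so its counts have no single direction of effect. PPARGC1A, the coactivator PGC-1α that raises both genes in fasting, had 8.64 ± 0.530 FPKM in WT and 2.82 ± 0.191 FPKM in KO, a log2 fold change of -1.33 (limma adjusted p = 2.47e-05). It went in the opposite direction to PCK1 and G6PC. CEBPB fell from 211 ± 15.3 to 132 ± 17.2 FPKM (-0.68), the glucocorticoid receptor NR3C1 from 6.44 ± 0.663 to 4.18 ± 0.115 FPKM (-0.52) and HNF4A from 44.5 ± 1.01 to 34.8 ± 1.20 FPKM (-0.35). FOXA2 (-0.35), RXRA (-0.34) and CEBPA (-0.29) fell too, as did INSR (-0.36), the receptor of insulin, which lowers both genes. FOXO1 (-0.59) was called lower, but the call was lost without any one of the WT libraries (-0.64 to -0.57) or without KO library 3 (-0.39). CREB3L3, a liver factor of the cAMP response family, rose from 11.1 ± 1.6 to 20.0 ± 2.13 FPKM (0.79), the forkhead factor FOXA1 from 18.4 ± 0.994 to 28.9 ± 1.00 FPKM (0.63) and SIK1, a kinase that holds back CRTC coactivators, from 4.87 ± 0.505 to 7.03 ± 0.736 FPKM (0.45). CRTC2 (0.02), FOXO3 (-0.08) and PPARA (-0.12) did not pass. With the library adjustment of Ballgown, PPARGC1A was the only lower call of this list that was kept, and FOXA1 and SIK1 were the higher ones.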

How the data were processed

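Oligo(dT)-selected RNA of WT and FN3K KO HepG2 cells was analysed, 3 plates each. The submitters' processing notes name HISAT2, StringTie 2.0.6 and the build GRCh38.p5. The authors deposited FPKM values per assembled locus. Read counts were not recoverable, since among the 300 lowest loci at most 2 had the same ratio in any of the 15 library pairs, so depth is unknown and no counting interval was given. FPKM summed to between 289983 and 314164 per library, and Pearson correlations across loci were 0.980 to 0.983 within groups and 0.923 to 0.931 across them.

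On the log2(FPKM + 1) scale, limma 3.58.1 under R 4.3.3 (lmFit, eBayes and its mean-variance trend) was fitted to the 6357 loci, KO minus WT, with Benjamini-Hochberg adjustment over all of them and calls at an adjusted p under 0.05. The procedure was tested on simulated data. Genes were matched by symbol and placed with GENCODE version 29 on GRCh38. The genes named are the 7 members, the genes of the pathway and marker lists, the 2 named loci nearest in pattern to each member, and FN3K. Some genes of the lists are counted but not reported here by name. Members and lists were chosen with earlier results of these data known, so counts over them describe and do not test. As alternatives, the pseudocount was set to 0.1, loci under a mean of 1 FPKM were dropped, libraries were brought to 1 common 75th percentile, the variance trend was left out, the library adjustment of Ballgown was used in single-gene linear models, the replicate number was added as a block, and each library was omitted once. Promoter windows came from RefSeq. Other steps used Python 3.11.15 (scipy 1.17.1, numpy 2.4.6, pandas 2.3.3, matplotlib 3.10.9).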

Additional observations from a re-analysis of the deposited data

How the results depend on the processing

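No value of the 7 genes changed direction under the 12 alternatives. PCK1, PKM and LDHA kept their calls in all 12, and SLC37A4 passed in none. With the library adjustment of Ballgown, 3 of the 7 genes were called in place of 6, 20 pathway genes were higher in place of 41 and 6 lower in place of 23. Of all loci, 9.53% were called higher in place of 21.2%, and 8.20% lower in place of 36.5%. That model ended the calls of G6PC (log2 fold change 0.61), PDHB (0.24) and SHPK (0.79). SHPK was also lost with a pseudocount of 0.1 (1.57), with a minimum mean of 1 FPKM or no variance trend (both 0.94), and without WT library 2 or any 1 KO library (0.53 to 1.06), while it passed without WT library 1 or 3 (up to 1.17). From FPKM + 1, the log2 difference of PCK1 to PKM was 0.74 in place of 0.95, and that of SHPK to TKT 0.76 in place of 1.55. Leaving out a library gave 5 to 6 higher calls among the 7 genes. Of the 65 other listed genes that were called, 37 lost their call with the library adjustment of Ballgown, 0 to 5 under each of the remaining settings with all libraries, and 3 to 10 when a library was left out. None reversed. The library numbers did not pair the samples, since deviations of same-numbered libraries correlated at 0.010, 0.006 and 0.046. With the number as a replicate block, SHPK had a log2 fold change of 0.94 (limma adjusted p = 0.0385), and no call of the 7 genes or of the 65 changed. FPKM of 3 libraries a group limits what can be seen for weakly expressed genes such as SHPK.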
